A study of Mus musculus with 4 samples.

Results

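The regions described here are stretches of open chromatin at the annotated starts of lincRNA genes, long intergenic non-coding RNA genes, in limb cells of mouse embryos at E11.5. They were chosen by position. The summits of 4 deposited ATAC-seq peak lists were pooled, extended by 250 bp on each side and merged where they overlapped, which gave 74669 regions. A merged region was kept when it held a summit within 1 kb of an annotated transcript start of a lincRNA gene and no summit within 1 kb of the start of a protein-coding gene. This left 366 regions, which serve 326 of the 1273 genes typed lincRNA in GENCODE M1, the annotation of the mm9 build used throughout.

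In ATAC-seq the transposase Tn5 inserts sequencing adaptors into DNA, preferentially where it is not wrapped in nucleosomes. The study concerned the lncRNA locus Maenli and the limb gene En1. It compared embryos with a stop cassette insertion, a sequence that ends transcription early and that the titles call 3xpA, with wild-type embryos. Each genotype has 2 libraries, and all 4 libraries come from forelimb and hindlimb cells of E11.5 embryos of the strain given as c57bl6.J X 129S6.sv, with no other allele or agent named. Cells were dissociated with trypsin and fixed before transposition. The labels do not say where the cassette lies, how many embryos or clones stand behind a library, or whether libraries of a genotype came from separate embryos, so p-values measure only the spread between these libraries. Open chromatin of fewer cells of a type and less open chromatin per cell cannot be told apart in such bulk samples.

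Transcription of most genes starts in a stretch free of nucleosomes, the promoter, and transposase cuts cluster there. In mammals many promoters lie in CpG islands, stretches in which the CG pair is not depleted as it is in most of the genome, and such promoters tend to be open in many tissues. LincRNA genes are transcribed and spliced like coding genes but encode no known protein. Many begin beside a coding gene and share its promoter in the opposite direction, while others begin alone and are often active in only a few cell types.

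The stop cassette lists held 79083 summits in replicate 1 and 107827 in replicate 2, and the wild-type lists held 51701 and 68471. The number of reads behind a list is unknown. Each summit carries a score, read here as −log10 of a q-value, which was used only as a percentile within its own list, from the weakest to the strongest summit. The lowest score was 1.30 to 1.31 in all 4 lists, so that the lists differ in length and not in their lowest score. Starts of the 15 limb mesenchyme and patterning genes used as markers were called in 10 to 14 cases per list, and 10 of the 15 were called in all 4 lists. Over all 22380 protein-coding genes 59.0% to 64.4% were called per list. Of 9 liver genes 0 or 1 was called per list. Starts of neuronal genes (5 to 7 of 8), blood genes (2 or 3 of 5), muscle genes (1 to 5 of 6), endothelial genes (1 or 2 of 5) and surface ectoderm genes (2 to 4 of 6) were called as well. The part of such cells in the results was not tested.

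Sequences at 10 of these starts show the range of base composition and of promoter motifs met below. All are mm9, written 5′ to 3′ on the gene's strand. A set of 6 gives 150 bases each, with CG pairs in capitals, and is shown because CpG content varied widely among these starts. A330023F24Rik with Gm16897, Snhg5 and Pvt1 were called in all 4 lists, C030037D09Rik only in the stop cassette lists, and Rian and B230209K01Rik in none. Windows are centred on the strongest summit (chr1:196802483-196802632 plus strand, chr9:88417730-88417879 minus strand, chr15:61869518-61869667 plus strand and chr11:88581744-88581893 plus strand) or, for the uncalled genes, on the annotated gene start (chr12:110842080-110842229 and chr1:122983907-122984056, both plus strand).
A330023F24Rik and Gm16897: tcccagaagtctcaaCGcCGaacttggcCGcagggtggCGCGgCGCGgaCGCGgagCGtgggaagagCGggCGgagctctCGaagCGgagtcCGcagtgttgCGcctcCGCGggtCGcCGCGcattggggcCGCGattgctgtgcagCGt
Snhg5: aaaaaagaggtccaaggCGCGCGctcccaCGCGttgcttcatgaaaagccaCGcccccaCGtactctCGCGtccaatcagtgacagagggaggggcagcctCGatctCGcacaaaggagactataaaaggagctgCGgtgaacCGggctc
Pvt1: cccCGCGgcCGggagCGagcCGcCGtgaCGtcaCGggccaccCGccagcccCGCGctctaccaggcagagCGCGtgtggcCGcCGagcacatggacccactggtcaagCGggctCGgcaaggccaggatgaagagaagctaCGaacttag
C030037D09Rik: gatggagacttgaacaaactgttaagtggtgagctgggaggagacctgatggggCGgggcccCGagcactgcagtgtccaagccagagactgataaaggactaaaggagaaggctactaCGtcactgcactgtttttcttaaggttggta
Rian: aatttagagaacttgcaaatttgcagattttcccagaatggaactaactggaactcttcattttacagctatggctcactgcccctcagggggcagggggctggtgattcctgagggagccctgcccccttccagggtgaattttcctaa
B230209K01Rik: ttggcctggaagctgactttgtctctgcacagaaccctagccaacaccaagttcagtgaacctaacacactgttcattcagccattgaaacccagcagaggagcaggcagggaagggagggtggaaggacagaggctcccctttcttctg

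The windows at A330023F24Rik with Gm16897, at Pvt1 and at Snhg5 hold 24, 18 and 13 CG pairs, that at C030037D09Rik holds 3, and those at the uncalled Rian and B230209K01Rik hold 0. Among the named uncalled genes these had the lowest ratio of observed to expected CG pairs, 0. Other uncalled genes had ratios above 0.6 at their starts: Xist 1.21, Tsix 0.876, Dlx1as 0.850 and Nkx2-2as 0.644. Over all 370 uncalled lincRNA genes 31 (8.38%) had such a ratio. A set of 4 gives 300 bases each around the strongest summit, with matches to promoter motifs in capitals, and is shown because these starts carry different combinations of such motifs. The window of 4930471M09Rik (chr6:91390718-91391017, minus strand) holds a cAMP response element (TGACGTCA) and a GC box (GGGCGG, written here as its complement CCGCCC). That of Gm17372 (chr17:21625764-21626063, minus strand) holds a CCAAT box, a match to the ETS motif CCGGAAG on the other strand, a GC box and an E-box (CAGCTG). That of 2610035D17Rik (chr11:113034177-113034476, minus strand) holds a match to the YY1 motif AAGATGGCG on the other strand and a GC box. That of B230206F22Rik (chrX:100812065-100812364, minus strand), named Ftx in RefSeq, holds 3 GC boxes.
4930471M09Rik: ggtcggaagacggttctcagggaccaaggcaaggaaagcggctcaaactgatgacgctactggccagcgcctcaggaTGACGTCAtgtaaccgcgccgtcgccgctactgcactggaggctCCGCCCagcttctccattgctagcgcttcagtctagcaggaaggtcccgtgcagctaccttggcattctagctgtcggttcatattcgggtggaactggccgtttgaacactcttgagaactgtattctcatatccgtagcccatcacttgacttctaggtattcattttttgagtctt
Gm17372: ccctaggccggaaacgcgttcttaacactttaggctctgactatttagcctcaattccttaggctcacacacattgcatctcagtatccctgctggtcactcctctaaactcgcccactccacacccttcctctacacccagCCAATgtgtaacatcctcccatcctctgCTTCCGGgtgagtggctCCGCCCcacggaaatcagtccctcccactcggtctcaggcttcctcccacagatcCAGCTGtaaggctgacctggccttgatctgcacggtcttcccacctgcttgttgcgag
2610035D17Rik: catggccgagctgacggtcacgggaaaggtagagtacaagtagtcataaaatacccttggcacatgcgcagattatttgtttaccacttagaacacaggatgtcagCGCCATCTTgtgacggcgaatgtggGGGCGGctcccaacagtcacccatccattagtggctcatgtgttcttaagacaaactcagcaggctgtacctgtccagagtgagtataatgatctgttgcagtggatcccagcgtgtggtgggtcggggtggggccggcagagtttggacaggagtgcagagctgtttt
B230206F22Rik: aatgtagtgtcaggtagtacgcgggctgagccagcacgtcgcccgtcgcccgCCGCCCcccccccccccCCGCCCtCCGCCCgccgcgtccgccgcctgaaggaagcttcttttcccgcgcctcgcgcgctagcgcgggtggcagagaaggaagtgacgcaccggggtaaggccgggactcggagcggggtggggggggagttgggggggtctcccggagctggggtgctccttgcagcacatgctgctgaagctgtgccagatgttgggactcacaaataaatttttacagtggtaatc

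The share of lincRNA genes with a called start was higher than that of protein-coding genes. A summit lay within 1 kb of a start of 823 lincRNA genes in stop cassette replicate 1, 880 in stop cassette replicate 2, 781 in wild-type replicate 1 and 816 in wild-type replicate 2. These are 64.7% (95% Wilson interval 62.0 to 67.2), 69.1% (66.5 to 71.6), 61.4% (58.6 to 64.0) and 64.1% (61.4 to 66.7) of the 1273 genes. The intervals cover counting error only. Over all 37310 annotated genes the shares called were 42.3%, 44.8%, 40.0% and 41.9%, and over the 22380 protein-coding genes they were 61.5%, 64.4%, 59.0% and 61.5%. The share of lincRNA genes exceeded that of protein-coding genes in all 4 lists, by 3.18 ± 1.07 percentage points (SD, n = 4 libraries; exact sign permutation, two-sided, p = 0.125, the smallest value that 4 libraries can give, adjusted p = 0.156 over the 5 share comparisons given here and by distance). Genes of type processed_transcript (18.7% to 27.1%) and pseudogenes (2.63% to 4.60%) had lower shares. By comparison, 2.52% to 5.09% of the genome's 2 kb bins held a summit of a given list.

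Most lincRNA calls came from regions shared with a coding gene. Of the 1273 lincRNA genes, 903 (70.9%) were called in at least 1 list, 731 (57.4%) in all 4, and 370 (29.1%) in none. The 366 regions account for 326 genes (25.6%). Another 577 genes (45.3%) were called only through regions that also hold a summit at a protein-coding start. In the annotation, 629 lincRNA genes (49.4%) have a protein-coding start within 1 kb, and 407 of those pairs (64.7%) are divergent, with both genes pointing away from each other.

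Away from coding genes the order was the reverse. For the 161 lincRNA genes that start 1 to 5 kb from a protein-coding start, 37.3%, 44.1%, 35.4% and 39.1% were called in stop cassette replicates 1 and 2 and wild-type replicates 1 and 2. Protein-coding genes at the same distance from the start of another coding gene were called in 63.0%, 65.4%, 57.3% and 61.2%. The lincRNA share was lower by 22.8 percentage points (difference −22.8 ± 2.01, SD, n = 4 libraries; exact sign permutation, two-sided, p = 0.125). At 5 to 50 kb the 324 lincRNA genes were called in 36.1% to 44.4% and the difference was −14.3 ± 1.41 points, and beyond 50 kb the 159 genes were called in 40.3% to 54.7% and the difference was −16.0 ± 3.97 points (n = 4 libraries and p = 0.125 by the exact sign permutation in each case). Within 1 kb of a protein-coding start 86.3% to 91.9% of lincRNA genes and 88.8% to 90.9% of protein-coding genes were called, a difference of −0.883 ± 1.40 points that ranged from −2.46 to 0.953 over the 4 libraries (exact sign permutation, two-sided, p = 0.25). In each of the 3 classes beyond 1 kb the lincRNA share lay below the protein-coding share in every list, and only the class within 1 kb, which holds the largest number of lincRNA genes, had no common direction. The Benjamini-Hochberg adjusted p over the 5 comparisons was 0.156 for the exact tests of these 3 classes, and none could pass 0.05. A gene could be called through any of its annotated starts, and the gene types were not matched for their number of starts.

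**Figure D1:**
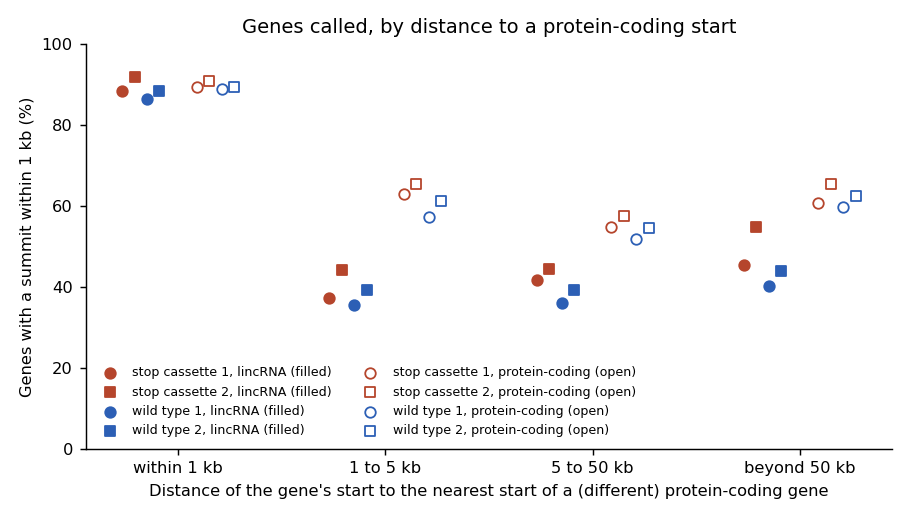
Percent of genes called in each list (vertical axis) by distance to the nearest protein-coding start (horizontal axis), for lincRNA genes (filled) and protein-coding genes (open); each point is 1 library. Both gene types sit between 86.3% and 91.9% within 1 kb, and beyond 1 kb the lincRNA genes lie below the protein-coding genes in all 4 libraries.

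The 366 regions were in part shared by all lists and in part held by the longest list alone. Of the 366, 291 (79.5%) had a summit of stop cassette replicate 1, 338 (92.3%) of stop cassette replicate 2, 241 (65.8%) of wild-type replicate 1 and 270 (73.8%) of wild-type replicate 2. Each stop cassette list held more than either wild-type list, with means of 314.5 ± 33.2 against 255.5 ± 20.5 (SD, n = 2 each), a difference of 59 regions (exact permutation test, two-sided, p = 0.333, the smallest value that 2 against 2 libraries can give). As a share of all regions in the list the order turned around, with 0.637% and 0.529% for stop cassette and 0.785% and 0.671% for wild type. With every list reduced to its 51701 strongest summits the difference in regions per list was 3.5. It was 36.5 without stop cassette replicate 2, 85 without stop cassette replicate 1 and 144 with an extension of 100 bp.

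All 4 lists held 216 of the 366 regions (59.0%). Of all merged regions 32.0% were held by all 4, of those at protein-coding starts 74.0%, and of distal regions, with no summit within 10 kb of any annotated start, 18.5%. Of the remaining lincRNA-start regions, 38 were held by 3 lists, 50 by 2 and 62 (16.9%) by 1. Of these 62, stop cassette replicate 2, the longest list, held 41 alone, stop cassette replicate 1 held 14, and wild-type replicates 1 and 2 held 2 and 5. At equal list length 310 lincRNA-start regions were found and 185 were in all 4 lists, against 38.3% of all regions.

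**Figure D2:**
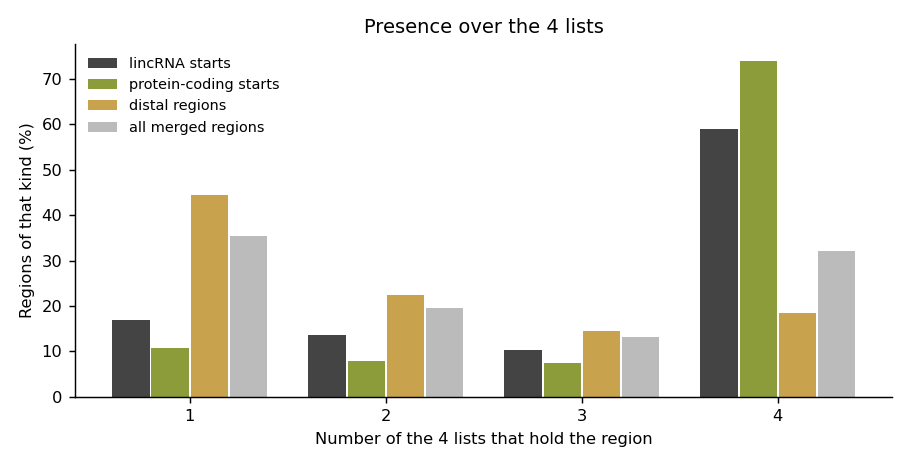
Percent of regions (vertical axis) held by 1, 2, 3 or 4 lists (horizontal axis) for lincRNA starts, protein-coding starts, distal regions and all merged regions. The lincRNA starts, with 59.0% in all 4 lists, lie between the protein-coding starts at 74.0% and the distal regions at 18.5%.

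Presence went with strength. The median of the regions' mean percentiles was 25.6 for those in 1 list, 35.1 in 2, 42.3 in 3 and 75.5 in 4. Over all lincRNA-start regions of a list, the median percentile was 68.4 and 76.9 in stop cassette replicates 1 and 2 and 63.2 and 68.9 in wild-type replicates 1 and 2. Regions at protein-coding starts had medians of 86.3, 89.4, 82.7 and 85.9, and distal regions 41.5, 47.8, 35.5 and 42.5. In each library the lincRNA starts lay below the protein-coding starts, by 16.8 percentile points on average (difference −16.8 ± 3.00, SD, n = 4 libraries), and above the distal regions by 27.5 ± 1.19 points (exact sign permutation, two-sided, p = 0.125 for both). A region's percentile is that of its strongest summit, and the classes were not matched for their number of summits. Regions in all 4 lists held a median of 8 summits at lincRNA starts, 10 at protein-coding starts and 6 in distal chromatin. The part of this in the differences was not tested.

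The spread among the lincRNA starts was wide. In stop cassette replicates 1 and 2 and wild-type replicates 1 and 2, 59, 88, 32 and 52 of the regions (20.3%, 26.0%, 13.3% and 19.3%) lay above the 90th percentile of their list, while 88, 88, 83 and 77 lay below the 50th. At protein-coding starts 32.6% to 48.4% lay above the 90th percentile. The same region could also rank differently between lists: over the 216 regions in all 4, the range of percentiles had a median of 23.5, with quartiles of 11.7 and 40.8 and a maximum of 84.2.

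**Figure D3:**
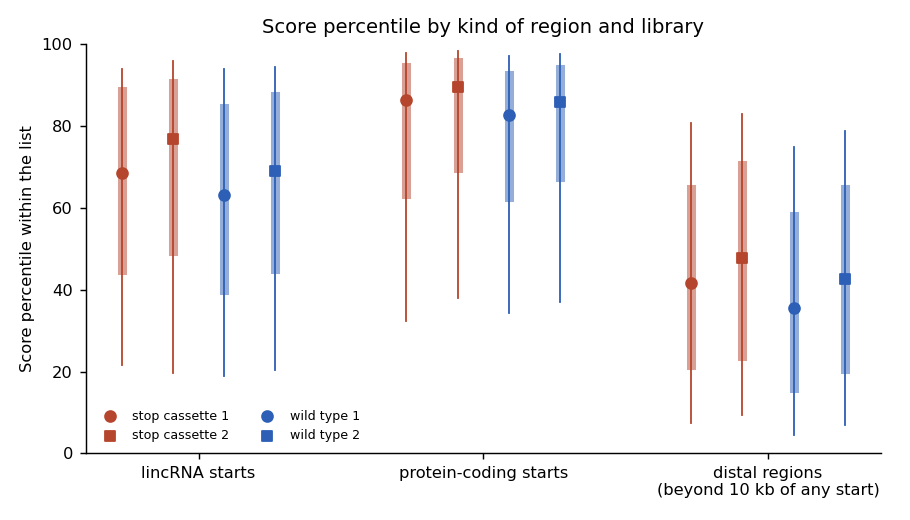
Score percentile within the list (vertical axis) of regions at lincRNA starts, at protein-coding starts and in distal chromatin (horizontal axis), by library; symbols are medians, thick bars quartiles and thin lines the 10th to 90th percentile of the regions. The medians of the lincRNA starts, 63.2 to 76.9, lie between those of the protein-coding starts and of the distal regions in all 4 libraries.

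The strongest lincRNA starts were near the top of every list. The strongest region by mean percentile, chr1:196802021-196802815, serves A330023F24Rik (ENSMUSG00000073474.4) and Gm16897 (ENSMUSG00000086469.1) and ranked at 99.0, 99.1, 99.7 and 99.9 in stop cassette replicates 1 and 2 and wild-type replicates 1 and 2. A330023F24Rik carries the microRNAs Mir29b-2 and Mir29c, and the strongest summit lies 11 bp upstream of the nearest annotated start, in an exon of Gm16897. A930006K02Rik (chr16:91464728-91466143, intergenic summit) ranked at 99.96, 99.93, 99.7 and 97.7. Both were at the top of every list, with the wild-type percentiles above the stop cassette ones for the former and below them for the latter.

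The other 8 of the 10 highest regions had mean percentiles of 97.8 to 99.3. They start 1700113A16Rik on chromosome 3, Gm16899 on chromosome 1, Gm10433 on chromosome 12, Atp10d on chromosome 5, Gm17372 and Gm10492 on chromosome 17, 2610206C17Rik on chromosome 7 and Gm12915 on chromosome 4. Atp10d is typed lincRNA in this annotation although its symbol is that of a phospholipid-transporting ATPase, so its type may be a limit of the annotation. The nearest protein-coding starts to these 8 lie between 2306 bp (Zfp53, a zinc finger gene, from Gm17372) and 231514 bp (Pcmtd1, from Gm16899). All 10 except 1700113A16Rik hold a GC box in the 300 bases at the strongest summit, and all except A930006K02Rik hold a CCAAT box, the letters bound by the factor NF-Y.

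Of the 326 reached genes 291 carry a Gm or Rik name in this annotation, and some of them have another symbol in RefSeq. Besides Atp10d, other reached genes such as Abhd1, Ttc28, Tdrd5 and Ppp1r3e carry symbols of coding genes. They were kept by their annotated type. Among 8 general lincRNA genes on a list of known names, 4 were called in all 4 lists, near the 57.4% of all lincRNA genes. Tug1, needed for retinal development, ranked at 96.1, 97.5, 93.1 and 98.1, but its start lies 682 bp from that of Morc2a and is shared with it. Pvt1, the neighbour of the Myc oncogene (chr15:61869542-62209651), ranked at 91.1, 90.4, 87.4 and 88.5. 1700020I14Rik, named Oip5os1 in RefSeq and also known as Cyrano, ranked at 94.3, 97.0, 83.8 and 91.2. 6720401G13Rik, named Firre in RefSeq, a nuclear RNA of the X chromosome, ranked at 89.2, 98.8, 78.2 and 85.9. These 4 starts were high in every library, and for all but Tug1 both stop cassette percentiles lay above both wild-type ones. That order was found in 38.9% of all regions in all 4 lists.

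The other 4 of this list were called in some lists only. Miat, known from heart and retina, had a summit in stop cassette replicate 2 at percentile 5.35 and in wild-type replicate 1 at 23.1. Sox2ot, which spans the neural gene Sox2, was called in stop cassette replicate 2 at 82.9 and wild-type replicate 2 at 47.3. Rmst, a lincRNA of neural differentiation, was called only in stop cassette replicate 2 at 16.0, and Gm14005, named Morrbid in RefSeq and known from myeloid blood cells, there alone at 34.7. None of the 4 was held by both lists of a genotype and absent from both of the other.

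LincRNAs of X inactivation, the silencing of an X chromosome in female cells, fell on both sides. B230206F22Rik (Ftx), an activator of Xist, was called in all 4 lists at 89.9, 96.8, 92.9 and 96.8 by its strongest region in each list. Of its 3 regions, at different annotated starts, 2 were in all 4 lists, and the third was in 3 at 12.3 and 16.3 in stop cassette replicates 1 and 2 and 4.67 in wild-type replicate 2. Xist, the RNA that coats the silenced X, had no summit within 1 kb of a start in any list, and the nearest summits lay 5561, 5470, 1159 and 1113 bp away. For Tsix, its antisense partner, the nearest summits lay 9536 to 26342 bp from a start. Over chromosome X, 30 of 41 lincRNA genes (73.2%) were called in at least 1 list, near the 70.9% of all lincRNA genes, and 14 of the 18 regions there were held by all 4, where the share over all 366 is 59.0%.

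Imprinted lincRNAs, expressed from the copy of only 1 parent, were mixed as well. Airn, the antisense RNA that silences Igf2r, was called at 81.9, 85.7, 53.2 and 65.3, with its strongest summit inside an intron of Igf2r. Nespas, antisense to Nesp in the Gnas locus, was called at 90.6, 90.9, 80.7 and 90.5. For both genes the stop cassette percentiles lay above the wild-type ones, widely for Airn and by less than 1 point for Nespas against wild-type replicate 2. The same order held for 38.9% of all regions in all 4 lists. Meg3, a maternally expressed RNA of the Dlk1 locus, was called in stop cassette replicate 2 and wild-type replicate 1 only. In these lists its region at chr12:110778955-110779464 ranked at 30.3 and 1.09, and that at chr12:110780783-110781452 at 13.7 and 35.7. Rian and Mirg, which lie downstream of Meg3, were called in no list.

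Hosts of small nucleolar RNAs, which guide the modification of ribosomal RNA, were called with few exceptions, whereas the share of microRNA hosts called was near that of all lincRNA genes. The 7 named hosts of type lincRNA, which are 6 hosts of small nucleolar RNAs and Dleu2, were called in all 4 lists. Snhg5 (chr9:88415894-88417721) ranked at 94.7, 95.5, 90.8 and 95.2, Snhg4 on chromosome 18 at 94.7, 95.2, 88.0 and 94.1, and Snhg12 at 88.9, 94.8, 67.2 and 82.9. Snhg7 was at 78.6, 91.6, 73.6 and 75.4 by its strongest region in each list. Dleu2, the host of a microRNA pair in the region deleted in chronic lymphocytic leukaemia, was at 83.7, 88.5, 85.0 and 87.4. Gas5 and Snhg1, at 92.4, 92.6, 94.8 and 95.9 and at 89.8, 91.0, 86.7 and 89.0, share their starts with the coding genes Zbtb37 and Slc3a2, 80 and 127 bp away. The genotypes overlap for Snhg5 and Dleu2, wild type is higher for Gas5, and stop cassette is higher for the other 4. Over all regions in all 4 lists, both stop cassette percentiles were higher in 38.9% and both wild-type ones in 3.47%.

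Hosts were also found from the annotation alone. Of 20 lincRNA genes with an annotated small nucleolar RNA inside on the same strand, 18 (90%) were called in all 4 lists, and the exceptions were Rian and 2900076A07Rik. Of 31 microRNA hosts 16 (51.6%) were called in all 4 and 22 (71.0%) in at least 1, where all lincRNA genes gave 57.4% and 70.9%. Among lincRNA genes more than 5 kb from a protein-coding start, 21 of 34 hosts of either kind (61.8%) were called in all 4 lists, against 149 of 449 non-hosts (33.2%). This last count pools both kinds of host, whose shares differed above, and they were not counted apart at this distance. The 20 hosts of small nucleolar RNAs lie at 18 loci more than 10 kb apart, so they are not all separate. These are counts with no test, and the hosts were not matched to non-hosts for CpG content.

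Most lincRNAs on the list of developmental names, most of which lie beside a transcription factor gene, were not called. Of 8 such genes, Hoxa11as, 2700086A05Rik (Hoxaas3), 5730457N03Rik (Evx1os), Dlx1as, Nkx2-2as and B230209K01Rik were called in no list, where the share over all lincRNA genes is 29.1%. Hoxa11as, 5730457N03Rik, Dlx1as and Emx2os start within 1 kb of a coding start, and of all lincRNA genes so placed 93.0% were called in at least 1 list. B230209K01Rik, named Celrr in RefSeq, lies on chromosome 1, 219791 bp from its nearest protein-coding start, that of Insig2. Its nearest summits were 33415 bp away in stop cassette replicate 1, 2090 bp in stop cassette replicate 2, and 33533 and 33452 bp in wild-type replicates 1 and 2. Six3os1 was called in stop cassette replicate 2 at 24.8 and wild-type replicate 1 at 56.1. Emx2os was called in all 4 lists at 1.99, 64.4, 21.8 and 65.7, but it starts 55 bp from Emx2, and its values ranged widely within both genotypes.

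Among the 366 regions, 9 (2.46%) have a limb regulator, from a list of 170 annotated genes, as their nearest protein-coding start at up to 100 kb, against 1.63% of all regions. These genes are Nr2f1 and Sox4 with 2 regions each, and Hoxd3, Mecom, Meis2, Wnt7a and Zic2 with 1 each. Such a neighbour was found for 2.75% of all 1273 lincRNA genes. It was found for 2.15% of those reached by the 366 regions and 4.05% of those in no list. Of the 9 regions, 4 (44.4%) were held by all 4 lists, against 59.4% of the 357 without such a neighbour. 4930471M09Rik (chr6:91390392-91391708), 29511 bp from the start of Wnt7a, the dorsal signal of the limb ectoderm, ranked at 92.8, 92.7, 89.7 and 96.8. A830082K12Rik beside the nuclear receptor gene Nr2f1 ranked at 50.8, 73.0, 68.1 and 65.4, and G630016G05Rik beside Meis2, a factor of the proximal limb, at 62.0, 68.0, 37.3 and 71.9. 2610307P16Rik, 65664 bp from Sox4, was the weakest at 12.6, 54.3, 39.9 and 24.4. In none of the 4 did the genotypes separate. Of lincRNA genes 5 to 100 kb from a limb regulator, 2 of 10 were called in all 4 lists, against 148 of 412 (35.9%) near other coding genes.

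Genotype-specific regions were few. Of the 366 regions, 23 (6.28%) had a summit in each stop cassette library and in no wild-type library, against 10% of all merged regions. The opposite pattern was found for 2 (0.546%), against 0.313% of all. At equal list length the counts were 5 of 310 (1.61%, against 5.22% of all regions) and 4 of 310 (1.29%, against 2.24%), and 3 of the 23 and 1 of the 2 kept their pattern. The count of stop cassette-specific regions thus fell from 23 to 5 when the lists had the same length.

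Of the 23, 2610035D17Rik had the strongest region (chr11:113033709-113034731, in an exon), with percentiles of 71.0 and 69.8 in stop cassette replicates 1 and 2. The nearest wild-type summits lay 7290 and 7274 bp away. The gene's nearest protein-coding neighbour is Sox9, the master factor of cartilage, 388285 bp from the region and so beyond the 100 kb used above. Another annotated start of the same gene (chr11:113062597-113063476) was held by all 4 lists at 82.0, 89.7, 76.6 and 73.2, and a further region between them was again held by the stop cassette lists only. So the gene itself was called in every library.

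The next 4 by mean percentile were 2610037D02Rik on chromosome 15 (81.4 and 47.8), C030037D09Rik (chr11:88581568-88582069, 65.6 and 53.4), 1992 bp from the start of Msi2, an RNA-binding protein gene, Gm17682 on chromosome 10 (58.8 and 53.1) and Gm11291 on chromosome 13 (53.7 and 44.0). 2610035D17Rik, C030037D09Rik and Gm17682 kept the pattern at equal list length. For Gm17682 wild-type summits lay 504 and 524 bp away, just outside the merged interval, while for 2610037D02Rik they lay 74608 and 40994 bp away. Of the 23 regions 6 had a wild-type summit within 1 kb and 4 had none within 10 kb, with a median distance of 5603 bp.

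Stop cassette summits lay just outside both regions found in the wild-type libraries alone. A second region of A330023F24Rik and Gm16897 (chr1:196802936-196803474) ranked at 40.0 and 58.4 in wild-type replicates 1 and 2, with stop cassette summits at 621 and 626 bp, and it kept its pattern at equal length. Gm17407 on chromosome 1 ranked at 13.2 and 10.1, and stop cassette replicates 1 and 2 had their nearest summits at 579 and 581 bp. The former lies beside the strongest of the lincRNA-start regions, which all 4 lists hold.

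In the 216 regions of all 4 lists, the share whose percentiles separated the genotypes was near that of all regions. Both stop cassette percentiles lay above both wild-type percentiles in 88 regions (40.7%, against 38.9% of all 23894 regions in all 4 lists). The reverse held in 4 (1.85%, against 3.47%). Over all lincRNA-start regions of each list, the median percentile was 72.6 ± 5.99 for stop cassette and 66.1 ± 4.03 for wild type (SD, n = 2 each), a difference of 6.57 points (exact permutation test, two-sided, p = 0.667). This difference was 2.88 at equal list length, 1.54 with an extension of 100 bp, 10.5 without stop cassette replicate 1 and 2.17 without stop cassette replicate 2. Leaving out wild-type replicate 1 gave 3.22. Over the 6 comparisons of genotypes made here, the adjusted p was 0.5 or higher. The share of lincRNA genes called was 66.9% ± 3.17 and 62.7% ± 1.94, a difference of 4.16 points (exact permutation test, two-sided, p = 0.333), and at equal list length it turned to −1.92 points. It was 6.40 without stop cassette replicate 1, 1.92 without stop cassette replicate 2 and 8.01 with a score above 5.83.

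Summits lay close to the annotated starts, but less tightly than at coding genes. The strongest summit within 1 kb of a lincRNA start had a median offset of −26 bp, that is upstream of the start, and a median distance of 177 bp, with 57.9% within 250 bp and 57.1% upstream. At protein-coding starts the median offset was −19 bp, the median distance 81 bp, and 74.3% lay within 250 bp. Distances were taken to the nearest annotated transcript start. The gene types were not matched for their number of starts, and more starts shorten such a distance. Of the strongest lincRNA-start summits 127 (34.7%) were intergenic, 125 (34.2%) lay in an exon and 114 (31.1%) in an intron.

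Regions with a nearer summit were shared by more lists. Of the 212 regions whose strongest summit lay within 250 bp of the start, 145 (68.4%) were in all 4 lists, with a median of their mean percentiles of 63.7. Of the 63 at 250 to 500 bp it was 38 (60.3%, median 62.2), of the 33 at 500 to 750 bp 13 (39.4%, median 46.3), and of the 58 at 750 to 1000 bp 20 (34.5%, median 41.1). At the limit of 1 kb, regions were compared by their nearest summit. Just inside, at 901 to 1000 bp, lay 15 regions with a median of 31.1, of which 5 were in all 4 lists. Just outside, at 1001 to 1100 bp, lay 10 with a median of 34.7, of which 1 was in all 4.

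**Figure D4:**
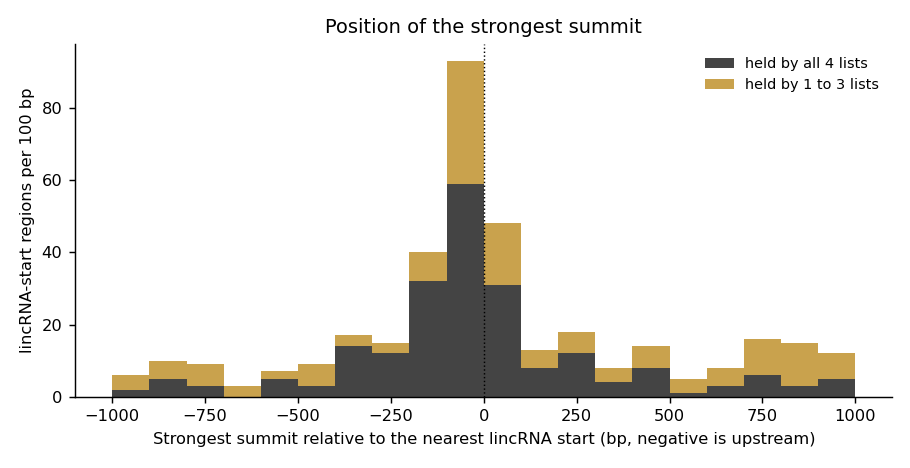
Number of lincRNA-start regions per 100 bp (vertical axis) by distance from the nearest lincRNA start to the strongest summit (horizontal axis, bp, negative values upstream), stacked by whether all 4 lists or 1 to 3 lists hold the region. The highest bar lies just upstream of the start, and 57.9% of the regions lie within 250 bp.

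Merged lincRNA-start regions were narrower than protein-coding ones. The median width was 816 bp, against 1117 bp at protein-coding starts and 527 bp in distal chromatin, and 1079, 1275 and 845 bp for regions in all 4 lists. A width here measures how far summits spread, since each summit adds 250 bp per side.

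CpG content divided the lincRNA starts. It is given as the ratio of observed to expected CG pairs in the 300 bases at the strongest summit, where values above 0.6 count as CpG-rich. The median was 0.514 over the 366 regions, 0.743 at protein-coding starts and 0.227 in distal regions, and 154 of the 366 (42.1%) were CpG-rich, against 67.0% and 4.28%. For regions held by 1, 2, 3 and 4 lists the median ratio was 0.423, 0.394, 0.335 and 0.647, so only those in all 4 stood higher, and 120 of the 216 (55.6%) were CpG-rich. The sequences printed above are examples from this range. Those of the first set called in all 4 lists were all CpG-rich, although 96 of the 216 regions in all 4 lists were not.

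CpG-rich lincRNA starts ranked higher and were shared more often. The 154 CpG-rich regions had median percentiles of 82.0, 86.5, 77.1 and 81.2 in stop cassette replicates 1 and 2 and wild-type replicates 1 and 2, and 77.9% were in all 4 lists. The 212 CpG-poor regions had 59.7, 64.5, 51.2 and 59.5, and 45.3% were in all 4. At protein-coding starts the CpG-poor medians were 64.1 to 70.3 and the CpG-rich medians 85.5 to 92.7. Within each class the lincRNA starts still lay below, with a difference of −8.35 ± 3.48 points among CpG-poor regions and −7.56 ± 0.979 points among CpG-rich ones (SD, n = 4 libraries; exact sign permutation, two-sided, p = 0.125 for each). Both differences are smaller than the −16.8 points without the split.

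**Figure D5:**
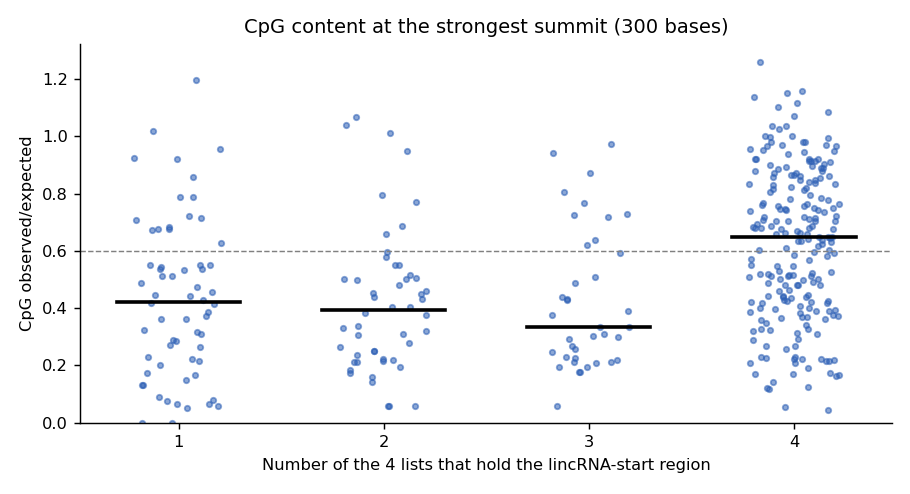
Ratio of observed to expected CG pairs in 300 bases at the strongest summit (vertical axis) of lincRNA-start regions held by 1, 2, 3 or 4 lists (horizontal axis); each point is a region, black lines are medians and the dashed line is 0.6. Medians are 0.423, 0.394, 0.335 and 0.647, and the regions in all 4 lists spread over both sides of 0.6.

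Among genes more than 5 kb from a protein-coding start, measured at the gene start from 250 bases upstream to 50 downstream, 24.2% of 483 lincRNA genes and 40.6% of 17164 protein-coding genes were CpG-rich. The 366 CpG-poor lincRNA genes were called in 30.9%, 36.1%, 24.6% and 27.9%, and CpG-poor protein-coding genes in 31.4%, 35.2%, 28.4% and 31.4%, a difference of −1.76 ± 2.29 points that ranged from −3.81 to 0.822 (n = 4 libraries; exact sign permutation, two-sided, p = 0.375). The 117 CpG-rich lincRNA genes were called in 80.3%, 84.6%, 77.8% and 81.2%, and CpG-rich protein-coding genes in 92.8%, 95.1%, 91.3% and 93.3%, a difference of −12.2 ± 1.24 points (n = 4 libraries; exact sign permutation, p = 0.125). Within lincRNA genes the CpG-rich share called exceeded the CpG-poor share by 51.1 ± 2.48 points, in all 4 libraries (exact sign permutation, p = 0.125). The adjusted p over 4 such comparisons was 0.375 for CpG-poor genes and 0.167 for the others (exact tests). CpG-rich lincRNA genes thus lay below CpG-rich coding genes in every library, whereas for CpG-poor genes the sign varied between libraries.

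Uncalled lincRNA genes were CpG-poor at their starts. The median ratio was 0.227 for the 370 uncalled genes, of which 31 (8.38%) were CpG-rich, against 0.531 for genes reached by the 366 regions (43.6%) and 0.769 for genes called only through regions at a coding start (70.4%). Uncalled protein-coding genes had a median of 0.177 and called ones 0.729. Uncalled lincRNA genes also had fewer exons in their longest model, with a median of 2 against 3, and a shorter median span of 6.65 kb against 9.43 kb for reached genes.

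Motif matches, counted on both strands in the 300 bases at the strongest summit, mostly placed the lincRNA starts between coding starts and distal chromatin. The GC box GGGCGG, letters bound by SP1 and related factors, occurred in 43.2% of the 366 regions, 61.7% of protein-coding starts and 10.3% of distal regions, and in 52.3% of the lincRNA starts in all 4 lists. The ETS motif CCGGAAG occurred in 7.10%, 13.1% and 1.84%, the NRF1 motif GCATGCGC in 1.37%, 3.93% and 0.647%, and the YY1 motif AAGATGGCG in 0.546%, 2.48% and 0.236%. For NRF1 and YY1 the lincRNA values rest on 5 and 2 of the 366 regions. The CRE TGACGTCA occurred in 3.55%, 2.75% and 0.521%, so that here the lincRNA starts were above both. These 5 motifs each contain a CG pair, and the 3 classes also differ in CpG content. At the starts of uncalled lincRNA genes the GC box occurred in 10.8% of windows, against 43.9% for genes reached by the 366 regions.

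Motifs without a CG pair were mostly either similar in all classes or more frequent in distal regions. CCAAT occurred in 33.6% of lincRNA starts, 33.7% of protein-coding starts and 34.4% of distal regions, and the E-box CAGCTG in 21.9%, 18.5% and 24.4%. The TATA box TATAAA (7.38%, 5.11% and 18.7%), the homeobox motif TAATTA (4.92%, 2.16% and 11.3%), the AP-1 motif TGANTCA (8.20%, 4.54% and 10.3%) and the CTCF motif (3.01%, 2.27% and 6.51%) were more frequent in distal regions, with lincRNA starts again in between. The ZNF143 motif ACTACAATT was rare, at 0.273% (1 region), 0.495% and 0.144%. All are matches of letters and no evidence of binding.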

How the data were processed

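ATAC-seq summits of 4 libraries were used as deposited, 2 per genotype, with groups and replicate numbers from the titles. The authors mapped reads to mm9, and Bowtie2 2.2.6 and Picard are named in the submitters' processing notes. According to the names of the deposited peaks, duplicates and chrM reads had been dropped and the mapping quality threshold was 30. The peak caller and any shift of reads for transposase binding are not given in the sources used here. The deposited score behaves as −log10 of a q-value, with its lowest value near the cutoff of 0.05. No read counts were used, so depth is unknown.

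Summits were pooled, extended by 250 bp and merged. Starts are all annotated transcript starts of GENCODE M1 (NCBIM37, the same build), and a gene was called in a list with a summit within 1 kb of any of them. A region's percentile in a list is the rank of its strongest summit there. Genotypes were compared by exact permutation of group means, and classes by exact sign permutation over libraries, both two-sided, in Python 3.11.15 with scipy 1.17.1. The counting was tested on simulated lists and recovered 200 of 200 planted regions. Each simulated site stood alone with its summits close to the start. The merging of neighbouring sites and cases near the 1 kb limits were therefore not tested.

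Named were all lincRNA genes on 5 lists of known names, the 10 regions in all 4 lists with the highest mean percentile, the 5 strongest genotype-specific regions per direction with those that keep the pattern at equal list length, and regions in all 4 lists beside limb regulators. The members and lists were chosen with earlier results of these data known. Current gene names were matched by gene ID to RefSeq, where 210 of 326 genes had a symbol. Alternatives were equal list length, a stricter score, extensions of 100 and 500 bp, a start distance of 500 bp, gene 5′ ends only, autosomes only, each library left out, the replicate number as a block and, added after the data were seen, no summit within 5 kb of a protein-coding start.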

Additional observations from a re-analysis of the deposited data

How the results depend on the processing

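With all libraries kept, 56 of 66 recomputed values kept their direction or, for counts, a similar size, 9 counts moved and 1 difference reversed. Keeping the direction did not mean a like size: the difference in regions per list ranged from 3.5 to 144 and that in median percentile from 1.54 to 6.97, and the share of genes called reached 8.01 points with the stricter score. The reversed value is the stop cassette minus wild-type difference in the share of lincRNA genes called, which went from 4.16 to −1.92 points at equal list length. The median percentile of lincRNA starts minus that of protein-coding starts ranged from −17.4 points with autosomes only to −11.2 with an extension of 100 bp. Against distal regions the difference ranged from 21.5 points with that extension to 31.7 with a start distance of 500 bp. Regions in all 4 lists fell from 216 to 125 with a score above 5.83. Stop cassette-specific regions went from 23 to 5 at equal list length and 61 with an extension of 100 bp. Wild type-specific regions went from 2 to 4 at equal list length, 5 and 0 with extensions of 100 and 500 bp, 1 with a start distance of 500 bp, 1 with no summit within 5 kb of a protein-coding start, and 0 with the stricter score. The number of lincRNA-start regions itself was 655 with an extension of 100 bp, and 278 to 386 under the other alternatives that kept all libraries. Leaving out a library gave differences of 36.5 to 85 regions per list, 1.92 to 6.40 points in the share of genes called and 2.17 to 10.5 points in median percentile. It gave 32 to 68 regions specific to the stop cassette and 3 to 7 specific to wild type, where 1 list then stands for its genotype. Stop cassette-specific regions numbered 68 when stop cassette replicate 1 was left out, 38 for stop cassette replicate 2 and 52 for wild-type replicate 2. The replicate numbers are shared by the genotypes, but no label ties same-numbered samples to a common litter or day. With the replicate number as a block the 3 genotype differences kept their values of 59 regions, 4.16 points and 6.57 points, each with an exact p of 0.5, the smallest that pairing allows. Without read counts, a start missing from a list cannot be told apart from one below the detection limit of that library.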
